A study of Rattus norvegicus with 12 samples.

Results

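The genes described here are those that set the GABA or glutamate identity of a neuron and clear GABA after release: Gad1, Gad2, Slc32a1, Slc6a11, Abat, Slc17a6 and Slc17a7. They were chosen by symbol. Every probe set, the group of short probes that reads 1 transcript on an Affymetrix rat genome array, was taken if the array annotation gave it 1 symbol and that symbol was a member. This found 11 probe sets of the 31042 on the array that are not manufacturer's controls, for all 7 of the 14217 genes named by a single symbol. The brightest probe set over the 12 arrays is called the main one of its gene. RNA was taken from the hypothalamic arcuate nucleus (ARC), cut from stained brain sections by laser capture, in 6 recuperated and 6 control male Wistar rats at 3 months of age, with 1 animal per array. Recuperated rats were born to dams fed 8% protein and were nursed by control dams from postnatal day 3, control rats were offspring of control dams, and both ate standard chow afterwards. The study culled recuperated litters to fewer pups than control litters, all male, so the diet before birth and the rearing of the litter cannot be told apart. The question put to these genes was whether the balance of inhibitory and glutamatergic transmitter genes in the adult ARC differed with early nutrition.

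Neurons make GABA from glutamate with the 2 glutamate decarboxylases and load it into synaptic vesicles with the vesicular GABA transporter VGAT, so these proteins mark an inhibitory cell. Released GABA is taken back by transporters on neurons and astrocytes and is broken down by GABA transaminase. Glutamate neurons mostly lack this set and fill vesicles through a VGLUT transporter, mainly VGLUT2 in the hypothalamus and VGLUT1 in the cortex and hippocampus. Many ARC neurons are GABAergic, among them those that make Npy and Agrp and drive feeding, whereas the neighbouring ventromedial nucleus (VMN) is largely glutamatergic.

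The promoters of Gad1, Slc32a1 and Slc17a6 are shown because the main probe sets of these 3 genes had the widest ranges over the arrays among the 7 main ones, and on recuperated array 4 Slc17a6 moved opposite to Gad1 and Slc32a1. Each is the 250 bases before the gene's start in RefSeq on the GRCr8 rat assembly, at chr3:75777202-75777451 for Gad1, chr3:167686995-167687244 for Slc32a1 and chr1:110348197-110348446 for Slc17a6, all on the plus strand. Capitals mark matches on either strand to the TATA box TATAAA, the GC box GGGCGG or the homeodomain core TAATT.
Gad1: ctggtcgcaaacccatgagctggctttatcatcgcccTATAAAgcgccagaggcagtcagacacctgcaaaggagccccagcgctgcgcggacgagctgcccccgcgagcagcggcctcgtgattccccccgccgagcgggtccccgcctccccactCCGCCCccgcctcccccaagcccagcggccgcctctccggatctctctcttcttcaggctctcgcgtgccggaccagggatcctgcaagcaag
Slc32a1: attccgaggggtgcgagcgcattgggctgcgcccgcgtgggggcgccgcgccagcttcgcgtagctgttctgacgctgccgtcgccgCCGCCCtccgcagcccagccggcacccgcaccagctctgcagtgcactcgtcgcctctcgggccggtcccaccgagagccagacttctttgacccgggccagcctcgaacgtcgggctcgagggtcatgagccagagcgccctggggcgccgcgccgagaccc
Slc17a6: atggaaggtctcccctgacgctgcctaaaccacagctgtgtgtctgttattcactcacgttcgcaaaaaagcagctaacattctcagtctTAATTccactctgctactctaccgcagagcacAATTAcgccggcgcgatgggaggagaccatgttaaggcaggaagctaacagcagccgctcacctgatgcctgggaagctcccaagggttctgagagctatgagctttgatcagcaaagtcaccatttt

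The promoters of Gad1 and Slc32a1 were rich in G and C, at 68.4% and 73.6% of bases, and that of Slc17a6 held 50.8%, against a median of 51.2% (quartiles 44.0% and 60.0%) over 33469 rat promoters of the same length. Gad1 had 1 TATAAA, which lay 213 bases before the start, and 1 GGGCGG. Slc32a1 had 1 GGGCGG, and Slc17a6 had 2 matches to TAATT, a motif bound by homeodomain proteins such as those of the Dlx family. Of all the promoters, 12.9% held TATAAA, 30.5% GGGCGG and 26.2% TAATT. The motifs did not overlap each other in these windows, and a match is a description of the letters only. Promoters of 6 of the 7 members were in the table used, and Abat was not matched.

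All values below are log2 expression on the scale the authors deposited, in which 1 unit is a doubling. The median of an array lay between 6.21 and 6.30. Probes of different genes bind differently, so levels were set against the array median and not against each other. Of the 7 main probe sets, 6 were above the array median on all 12 arrays, as were 40.3% of all probe sets. Slc17a7, which encodes VGLUT1, was above it on 0 of 12 arrays with either of its probe sets, as were 39.7% of all probe sets. Of 8 measured genes that mark cortical and hippocampal glutamate neurons, 6 were also above the median on 0 arrays, while Camk2a was above it on all 12. Of 12 measured ARC neuropeptide and dopamine genes, 9 were above the median on all 12 arrays. The others were Tac3, above it on 11 arrays, Slc6a3 on 5 and Pomc on 0. The Pomc value is that of its brightest probe set, whereas the paper reports high Pomc expression in the dissected tissue by RT-PCR. Agrp and Kiss1 of the same list were not measured. Of 11 measured astrocyte genes, 11 were above it on all 12 arrays.

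**Figure D1:**
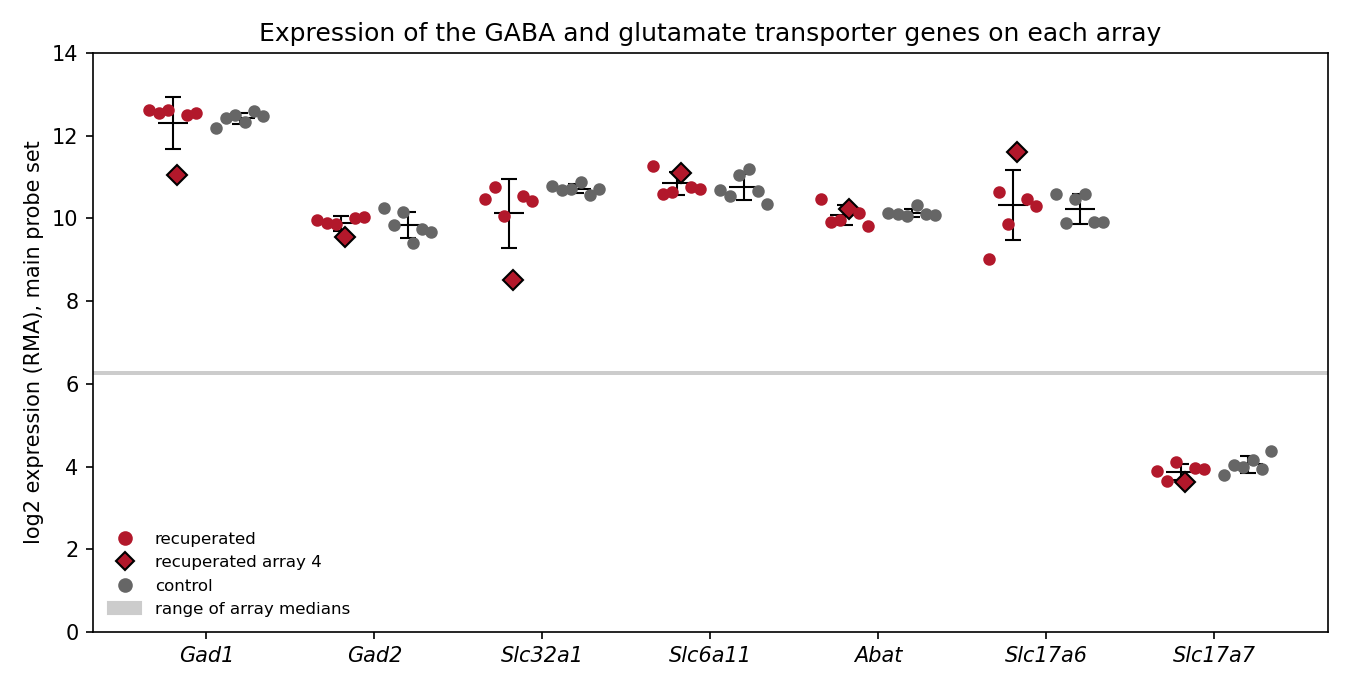
Deposited log2 expression of the main probe set of each gene (y axis) on 6 recuperated arrays (red, left of each pair) and 6 control arrays (grey, right), with mean and SD as black bars and the range of array medians as a grey band. Recuperated array 4, drawn as a diamond, is lowest for Gad1 at 11.04 and for Slc32a1 at 8.50 and highest for Slc17a6 at 11.61, and both groups of Slc17a7 lie below the array medians.

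None of the 11 probe sets met the study's threshold of 1.3-fold with P under 0.05, taken here from limma's test across all probe sets: 0 were higher and 0 lower in recuperated rats, against a background of 1.2% higher, 1.27% lower and 2.47% in either direction. No probe set of the array passed an adjusted p of 0.05 (0 of 31042, with 1071, or 3.45%, at an unadjusted P under 0.05, among them 0 of the 11). Recuperated and control arrays overlapped for all 11 probe sets, and groups that do not overlap were found for 0.155% of the array. By an exact two-sided permutation test, whose smallest possible p is 0.00216, 1 of 11 had a p under 0.05, in the lower direction, against 3.52% of all probe sets in either direction and 2.3% lower. The median log2 fold change of the 7 main probe sets was -0.07, with 3 positive and 4 negative, beside a median of -0.028 and 43.4% positive over the array. Fold changes were computed after each array's median was subtracted. In tissue of mixed cells, fewer cells of a type and less RNA per cell cannot be told apart.

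The member with the smallest p was Slc32a1, which encodes VGAT. In recuperated rats its lowest, median and highest values were 8.50, 10.45 and 10.76, against 10.56, 10.71 and 10.88 in control rats. On 5 of 6 recuperated arrays it read below the lowest control, with array 5 close to it at 10.55, and recuperated array 2, at 10.76, lay inside the control range. After subtraction of array medians 4 of 6 lay below the lowest control. The mean was 10.12 ± 0.83 in recuperated rats and 10.72 ± 0.11 in control rats (SD, n = 6 each). The log2 fold change was -0.62 (SE 0.30, 95% interval -1.27 to 0.03), with an adjusted p of 0.999 from limma (P = 0.0611) and p = 0.0173 by the exact permutation test over arrays.

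The size of this difference depended on recuperated array 4. Without it the log2 fold change of Slc32a1 was -0.29 (SE 0.13, 95% interval -0.58 to 0.00), with P = 0.0511 from limma, an adjusted p of 1.0 and an exact permutation p of 0.026. With any 1 of control arrays 1, 2, 3, 4 or 6 left out, the exact permutation p was between 0.0563 and 0.0736. With recuperated array 2 left out, Slc32a1 met 1.3-fold with P under 0.05 (log2 fold change -0.74, limma P = 0.0341, exact permutation p = 0.00433), and likewise with recuperated array 5 left out (-0.71, limma P = 0.0441, exact permutation p = 0.00866). Arrays 2 and 5 held the highest recuperated values, so leaving either out was bound to widen the difference. With recuperated array 1, 3 or 6 left out, the exact permutation p was 0.0173, and with control array 5 left out it was 0.0303. In these fits limma P was 0.0512 to 0.0909.

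Neither decarboxylase passed a test. Gad1 encodes GAD67, the form that makes most of the brain's GABA. Its main probe set read 11.04, 12.54 and 12.63 at the lowest, median and highest recuperated array, against 12.19, 12.46 and 12.59 in control rats. The recuperated arrays other than array 4 were tightly grouped, at 12.50 or more, within and just above the upper part of the control range. The log2 fold change was -0.13 (SE 0.24, 95% interval -0.64 to 0.39, exact permutation p = 0.972), and 0.13 without recuperated array 4 (SE 0.11, 95% interval -0.11 to 0.37, exact permutation p = 0.0758). The second Gad1 probe set was dimmer, at 8.14 ± 0.91 in recuperated and 8.21 ± 0.27 in control rats (SD, n = 6 each). It likewise had its lowest value, 6.42, on recuperated array 4, and its log2 fold change was -0.10 (SE 0.34) with that array and 0.25 (SE 0.19) without it.

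Gad2 encodes GAD65, the decarboxylase anchored at nerve terminals. It read 9.54, 9.93 and 10.04 in recuperated rats, against 9.40, 9.79 and 10.25 in control rats, so that every recuperated array lay inside the control range. The log2 fold change was 0.02 (SE 0.15, 95% interval -0.31 to 0.35, exact permutation p = 0.916).

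GABA clearance was represented by Slc6a11, a plasma membrane GABA transporter found mostly on astrocytes, and by Abat, the mitochondrial GABA transaminase. Slc6a11 read 10.60, 10.73 and 11.27 in recuperated rats, against 10.36, 10.68 and 11.19 in control rats. The log2 fold change was 0.08 (SE 0.17, 95% interval -0.29 to 0.44, exact permutation p = 0.632). The main probe set of Abat read 9.82, 10.04 and 10.46 in recuperated rats, against 10.05, 10.11 and 10.33 in control rats, and its log2 fold change was -0.07 (SE 0.13, 95% interval -0.35 to 0.21, exact permutation p = 0.543). The recuperated arrays thus reached both above and below the control range for Abat. Its 2 other probe sets were below the array median on all 12 arrays and gave log2 fold changes of 0.25 (SE 0.40) and 0.32 (SE 0.26), opposite in sign to the main one. The summed level of the 11 measured astrocyte genes, as a mean log2 value above the array median, spanned 4.69 to 4.90 on recuperated arrays and 4.80 to 4.91 on control arrays.

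On the glutamate side, Slc17a6, which encodes VGLUT2, was the most variable main probe set. It read 9.03, 10.39 and 11.61 in recuperated rats, against 9.88, 10.19 and 10.60 in control rats. The lowest and the highest of the 12 values were both recuperated, on array 1 and on array 4. The log2 fold change was 0.08 (SE 0.33, 95% interval -0.62 to 0.78, exact permutation p = 0.838), and -0.18 without recuperated array 4 (SE 0.27, exact permutation p = 0.604). Slc17a7 was dim in both groups, with 3.63, 3.92 and 4.12 in recuperated rats, against 3.80, 4.02 and 4.38 in control rats. Its log2 fold change was -0.20 (SE 0.14, exact permutation p = 0.126), and that of its second probe set was -0.11 (SE 0.13).

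**Figure D2:**
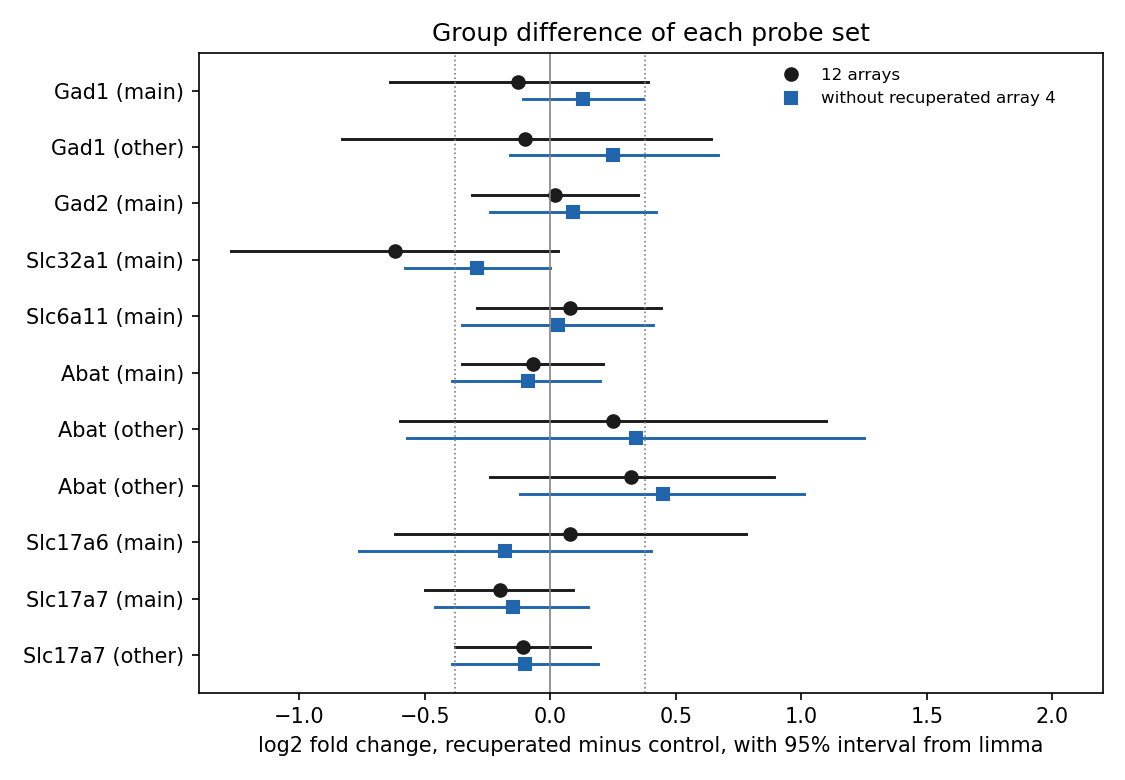
Log2 fold change of recuperated over control rats (x axis) for the 11 probe sets (y axis), as points with 95% intervals from limma, on 12 arrays (black circles) and without recuperated array 4 (blue squares), with dotted lines at 1.3-fold. Every interval on 12 arrays holds 0, and that of Slc32a1 runs from -1.27 to 0.03.

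Recuperated array 4 stood apart among these genes. It was the lowest of all 12 arrays for 4 of the 11 probe sets, both of Gad1 and the main ones of Slc32a1 and Slc17a7, and the highest for Slc17a6. For the dim Slc17a7 the margin was small, 3.63 against 3.65 on recuperated array 2, and both read -2.65 after subtraction of array medians. Over the array it was lowest for 13.2% and highest for 13.8% of probe sets. Dlx1 and Dlx5, homeodomain factors that switch on GABA genes in the developing forebrain, were lowest there too, at 7.39 against 8.86 to 9.43 on the other 11 arrays and at 5.13 against 5.92 to 7.05. Isl1, a LIM homeodomain factor of developing ARC neurons, read 7.64 there, against 7.86 to 8.99.

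Markers of neighbouring tissue moved with this array. Of 6 measured VMN genes, 5 were highest on it, and the list's mean log2 level above the array median was 2.42, against -0.32 to 0.85 on the other arrays. Nr5a1, the factor that defines VMN neurons, read 8.88 against 3.36 to 5.97. Of 12 measured ARC genes, 10 were lowest on it, with Npy at 7.19 against 10.60 to 11.75, and the list's level was 1.52 against 3.23 to 3.51. Of 9 measured marker genes for the ventricle's lining (tanycytes and ependyma), 8 were lowest on it. The level of 10 general neuron markers was 4.96 there, against 4.10 to 4.46. Of 9 measured microglia genes 6 were lowest on it (level 0.55 against 1.10 to 1.58), and of 9 measured oligodendrocyte genes 5 were highest (3.21 against 2.60 to 3.10). The log2 ratio of 3′ to 5′ probe sets of beta-actin, a sign of RNA quality, was 1.96 there, the highest of the 12 arrays, while that of GAPDH, at 1.84, lay within the range of the others. Its array quality weight in limma was the lowest, 0.5365 against 0.5745 to 1.8. Recuperated array 4 also had the lowest median correlation with the other arrays, at 0.966 against 0.968 to 0.98. The part of tissue content in the member values was not tested. Values without this array are given above for Gad1, Slc32a1 and Slc17a6, and below for pathway genes. Without it the log2 fold change was 0.09 for Gad2 (SE 0.15), 0.03 for Slc6a11 (SE 0.18) and -0.15 for the main Slc17a7 probe set (SE 0.14). For Abat it was -0.09 (SE 0.14) at the main probe set and 0.34 (SE 0.42) and 0.45 (SE 0.26) at the others.

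**Figure D3:**
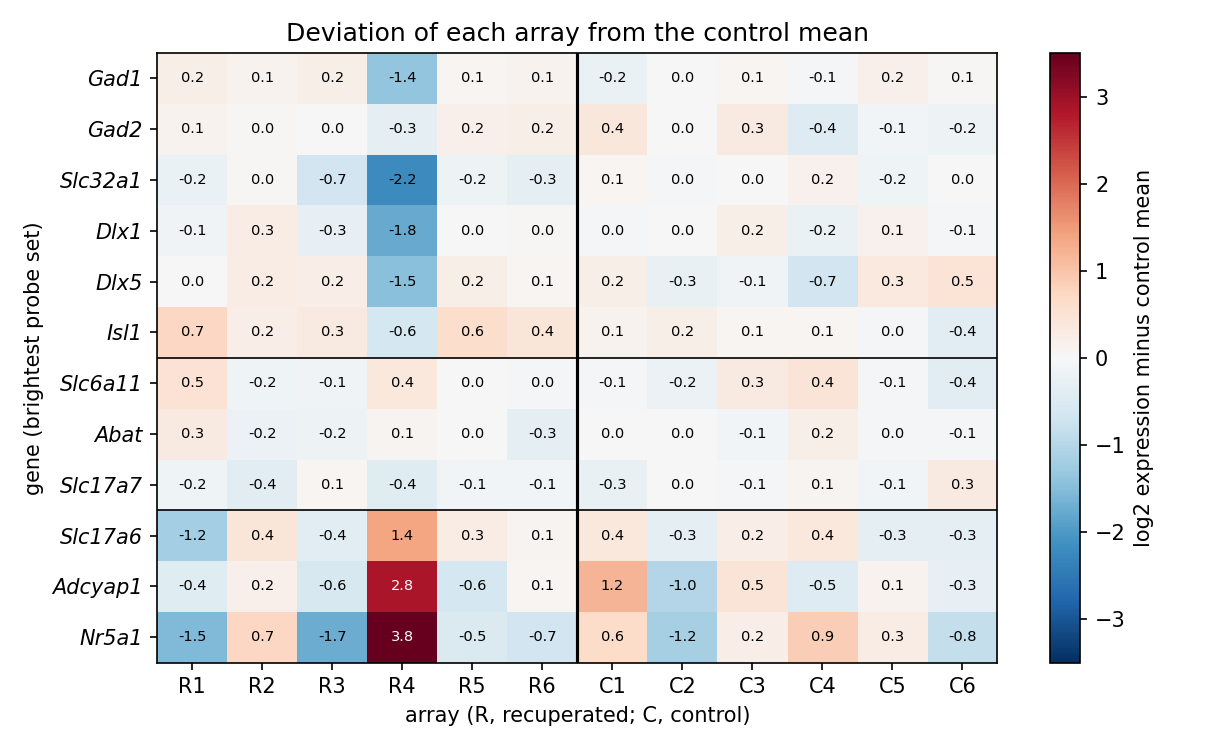
Log2 expression per array (x axis, recuperated R1 to R6 left, control C1 to C6 right) minus the control mean, by colour and printed value. The top 6 rows are Gad1, Gad2, Slc32a1 and the listed transcription factors Dlx1, Dlx5 and Isl1. GABA clearance and Slc17a7 fill the middle 3 rows, and Slc17a6 with the VMN genes Adcyap1 and Nr5a1 the bottom 3 rows. The column of recuperated array 4 is low in the top block and high in the bottom block, and no other column does so.

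Correlations between members were computed after array medians were subtracted. Across the 12 arrays Gad1 and Slc17a6 ran in opposite directions. Of 21 pairs of main probe sets, theirs was the 1 pair whose Pearson correlation passed adjustment (r = -0.77, permutation p = 0.00015, adjusted p = 0.00315; Spearman rho = -0.78, permutation p = 0.00416, adjusted p = 0.0874). Within recuperated rats r was -0.79 (exact permutation p = 0.00278, adjusted p = 0.0583). There rho was -1.0 (exact permutation p = 0.00278, adjusted p = 0.0583), so that on this scale the ranks of the 2 genes were exactly reversed. The Gad1 ranks rested on small differences, with 6.24 to 6.38 on the arrays other than 4 and 6.27 on both array 5 and array 6. Within control rats r was -0.76 (exact permutation p = 0.0611, adjusted p = 0.467). Without recuperated array 4, r was -0.65 (permutation p = 0.038, adjusted p = 0.273) and rho -0.71, and without the 2 arrays farthest from the median of Gad1, r was -0.70 (permutation p = 0.0289, adjusted p = 0.202). The sign was thus the same in each subset, while the adjusted p passed 0.05 with all 12 arrays only.

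Gad1 and Slc32a1, which inhibitory neurons use together, did not vary together once recuperated array 4 was left out. With all arrays r was 0.84 (permutation p = 0.0839, adjusted p = 0.498) and rho -0.43. Without that array r was -0.66 (permutation p = 0.039, adjusted p = 0.273) and rho was -0.85 (permutation p = 0.00157, adjusted p = 0.033). The remaining arrays pool both groups, and on them the log2 fold change was 0.13 for Gad1 and -0.29 for Slc32a1. The part of this group difference in the correlation was not tested. Within control rats r was -0.69 (adjusted p = 0.515) and rho -0.71 (adjusted p = 0.506). Within recuperated rats, array 4 included, r was 0.94 and rho 0.03. Without the 2 arrays farthest from the median of Gad1, rho was -0.82 (adjusted p = 0.126). The Pearson correlation of Slc32a1 with Slc17a6 likewise turned, with r = -0.51 (adjusted p = 0.498) on all arrays and 0.45 (adjusted p = 0.686) without recuperated array 4. Its rho did not turn, at 0.31 (adjusted p = 0.9) on all arrays and 0.71 (permutation p = 0.0186, adjusted p = 0.13) without that array. Within control rats this rho was 0.91 (exact permutation p = 0.0222, adjusted p = 0.467), and within recuperated rats it was -0.03. The positive r of Gad1 with Slc32a1 and the negative r of Slc32a1 with Slc17a6 therefore rested on 1 array. Slc6a11 and Abat had r = 0.65 over the 12 arrays (permutation p = 0.0209, adjusted p = 0.219) and 0.64 without recuperated array 4 (adjusted p = 0.273).

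**Figure D4:**
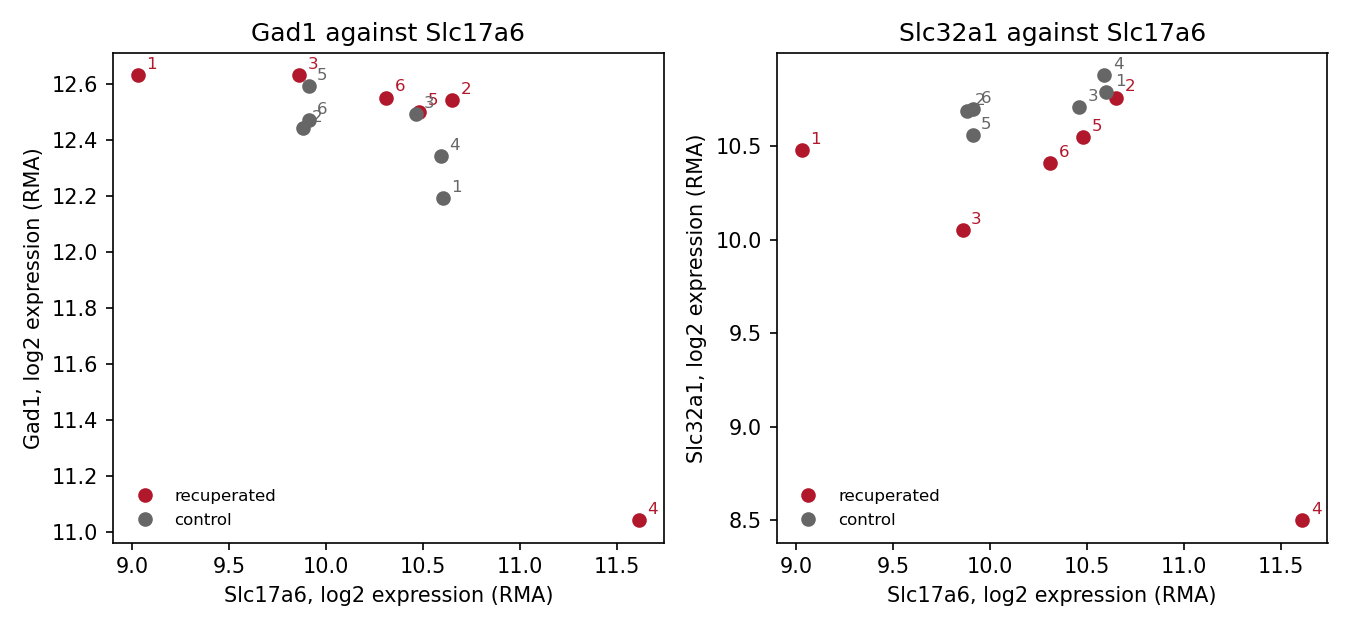
Log2 expression of Gad1 (left panel) and Slc32a1 (right panel) on the y axis against Slc17a6 on the x axis, with each numbered point 1 recuperated (red) or control (grey) array. In the left panel recuperated array 4 is lowest for Gad1, at 11.04, and highest for Slc17a6, and array 1 has the lowest Slc17a6, at 9.03, and in the right panel recuperated array 4 lies alone at the lower right, at 8.50 for Slc32a1 and 11.61 for Slc17a6.

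As a description with no test, the difference between an inhibitory gene and Slc17a6 was taken on each array relative to its mean in control rats. For Slc32a1 minus Slc17a6, 4 of 6 recuperated arrays lay below the control range of -0.31 to 0.31, at -0.39 on array 2, -3.61 on array 4, -0.43 on array 5 and -0.40 on array 6, and array 1 lay above it at 0.95. For Gad1 minus Slc17a6, 1 recuperated array lay below the control range of -0.60 to 0.48, array 4 at -2.77, and 2 lay above it, array 1 at 1.41 and array 3 at 0.58. For Gad2 minus Slc17a6, 1 recuperated array lay below the control range of -0.81 to 0.34, array 4 at -1.69. Above that range lay 2, array 1 at 1.32 and array 3 at 0.38. Recuperated arrays 1 and 4 were thus at opposite ends for each measure. Without array 4 the recuperated mean was -0.11 for Slc32a1, 0.31 for Gad1 and 0.27 for Gad2.

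Of the other genes of these pathways, 18 of 26 listed were measured. Of these, 0 were called higher and 0 lower, against 1.2% and 1.27% of all probe sets. In GABA uptake and breakdown 3 of 5 genes were measured. Akr7a2, an aldo-keto reductase that acts on the aldehyde made from GABA, read 7.59 ± 0.62 in recuperated and 8.06 ± 0.13 in control rats (SD, n = 6 each), with a log2 fold change of -0.50 (SE 0.23, P = 0.0529 from limma, adjusted p = 0.999, exact permutation p = 0.0779). The value for Akr7a2 was -0.44 (exact permutation p = 0.136) without recuperated array 4 and -0.30 (SE 0.18) without recuperated array 5, its lowest at 6.58. It met 1.3-fold with P under 0.05 from limma without recuperated array 1 (-0.63) or 3 (-0.62). Those arrays held the highest recuperated Akr7a2 values, so leaving either out was bound to widen the difference. Aldh5a1, which oxidises that aldehyde, differed by 0.04 (SE 0.12), and by 0.03 without recuperated array 4.

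In the list of transcription factors of GABA neurons 4 of 8 were measured. A place on this list does not mean that a gene is confined to GABA neurons. Isl1 had a log2 fold change of 0.26 (SE 0.20, exact permutation p = 0.273) and was above the highest control on 5 of 6 recuperated arrays, with array 4 below the lowest control. Without recuperated array 4 it was 0.44 (SE 0.14, P = 0.00927 from limma, adjusted p = 1.0, exact permutation p = 0.00649), which meets the 1.3-fold threshold on 11 arrays. That array held the lowest Isl1 value, so leaving it out was bound to raise the difference. On the same 11 arrays 456 of the 31042 probe sets were called higher and 412 lower. Dlx1 had -0.33 (SE 0.28, exact permutation p = 0.359), and -0.04 without recuperated array 4. Dlx5 had -0.14 (SE 0.29), and 0.13 (SE 0.19) without that array.

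For glutamate supply and uptake 11 of 13 genes were measured, and all 11 were above the array median on all 12 arrays. Gls2, a glutaminase that makes glutamate from glutamine, read 8.18 ± 0.12 in recuperated and 7.86 ± 0.44 in control rats (SD, n = 6 each), a log2 fold change of 0.30 (SE 0.18, exact permutation p = 0.145). It was 0.33 without recuperated array 4 and 0.20 without control array 6. Gls2 met 1.3-fold with P under 0.05 from limma without control array 3 (0.40) or 4 (0.39). Control arrays 3 and 4 held its highest control values, so leaving either out was bound to widen the difference. Got2, the mitochondrial aspartate aminotransferase, differed by 0.20 (SE 0.13, exact permutation p = 0.0693). Got2 was highest on recuperated array 4, at 10.53 against 9.63 to 10.17 on the other arrays, and without it the difference was 0.12 (SE 0.11, exact permutation p = 0.13). The remaining 9 genes, among them the astrocyte glutamate transporters Slc1a2 and Slc1a3 and glutamine synthetase Glul, had log2 fold changes between -0.17 and 0.10.

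The genes whose pattern over the 12 arrays was most like that of Slc32a1, of 9045 compared, were Fndc3c1, Tbx3, Nr5a2, Gpx1 and Th, with Pearson r between 0.94 and 0.97. All 5 were lowest on recuperated array 4, with Th, tyrosine hydroxylase of dopamine neurons, at 6.84 against 9.67 to 10.10. Without that array the list was Stmn4, Hrk, Rasl10b, Tspan7 and Ndufa2 (r 0.88 to 0.96), and 0 of 5 genes were shared. For Gad1 the genes were Tgfbi, Pygl, Gpc4, Cd63 and Cartpt (r 0.96 to 0.97), again with 0 of 5 shared with the list on 11 arrays. For Slc17a6 they were Ergic1, Sbno1, Slc35f1, Rbfox1 and Dusp3 (r 0.92 to 0.93), all highest on recuperated array 4, and Rbfox1, an RNA splicing factor of neurons, was the 1 gene that was also on the list without it. These correlations were ranked over many genes on the same libraries and are a description.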

How the data were processed

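RNA from the ARC of 6 recuperated and 6 control rats was amplified and hybridised to Affymetrix Rat Genome arrays, 1 animal per array. The authors deposited log2 values from RMA (background correction, quantile normalization and median polish). RMA and the program Affymetrix Expression Console are given in the submitters' processing notes, while the paper's methods name GeneSpring for RMA. The version of Expression Console and a genome build are not given in the sources used here. RMA compresses the changes of dim probe sets.

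From the deposited log2 values, each array's median over 31042 probe sets was subtracted, after 57 control probe sets of 31099 were set aside. Group differences came from limma 3.58.1 (lmFit, eBayes; R 4.3.3) without covariates, with Benjamini-Hochberg adjustment over the 31042 and a fold threshold of 1.3. Single probe sets were tested with the exact two-sided permutation test, and correlations of the 21 pairs with 100000 resamples (groups of 6 exactly) in Python 3.11.15 with scipy 1.17.1. The fit was tested on simulated data. GEO's annotation of the platform gave 1 symbol to 20826 probe sets, several to 436 and none to 9780. Promoter sequences are RefSeq's.

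The members and gene lists were chosen with earlier results of these data known. Named are every member, genes of 3 pathway lists, with values for the 2 with the smallest P of each (Dlx5 was added for its value on recuperated array 4, and Glul and Glud1 for single arrays), defining markers beside a member, and the 5 most alike genes of Slc32a1, Gad1 and Slc17a6. The alternatives were no median subtraction, quantile normalization, the methods' t-test, leaving out dim probe sets, array quality weights, animal number as a block, averaging a gene's probe sets, and each array left out in turn. Precision is limited by the number of arrays, which hold no read depth. The study counts litters as n, and p-values measure the spread between these animals.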

Additional observations from a re-analysis of the deposited data

Results flagged for a closer look

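A single array lay far from the other 5 of its group for 10 of 58 groups of 6 values checked among the members and pathway genes. Chance flags about 1 in 20 groups, here 2.9.

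Of the 10, 7 were the lowest recuperated value and came from recuperated array 4. It read 11.04 for the main probe set of Gad1 (12.50 to 12.63 on the other recuperated arrays), 6.42 for its second probe set (8.15 to 8.91), 9.54 for Gad2 (9.86 to 10.04) and 8.50 for Slc32a1 (10.05 to 10.76). It read 7.39 for Dlx1 (8.86 to 9.43), 5.13 for Dlx5 (6.59 to 6.83) and 7.64 for Isl1 (8.50 to 8.99). For Gad2 this value still lay above the lowest control, 9.40.

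The other 3 came from 2 other arrays. Control array 4 was highest for Abat at 10.33 (10.05 to 10.14 on the other control arrays) and lowest for Glud1, glutamate dehydrogenase, at 10.87 (11.30 to 11.37). Recuperated array 3 was lowest for Glul at 12.03 (12.27 to 12.33 on the other recuperated arrays).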

How the results depend on the processing

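Over all probe sets, 371 were higher and 395 lower in recuperated rats. A filter on dim probe sets left 118 and 150, the methods' t-test gave 243 and 263, array quality weights 501 and 519, no median subtraction 434 and 302, quantile normalization 447 and 313, and the animal number as a block 452 and 411 with 0 at an adjusted p under 0.05. Of 91 marker list genes measured, 2 were lower (Slc6a3 and Lhb, against 1.27% of all probe sets), but 0 with the t-test or without recuperated array 4, control array 2 or control array 5, and 1 without subtraction or with the block. The filter, which needs at least 6 arrays above the array median, removed both before its fit (Slc6a3 had 5 and Lhb 1), so it did not retest them. Of the pathway genes, 0 were lower, but 1 (Akr7a2) with array weights or the filter. Signs turned with array weights for Gad2 (-0.01), Slc6a11 (-0.01) and Aldh5a1 (-0.04), and with the mean of all probe sets for Abat (0.17). The 1 pair past adjustment became 0 under Spearman, in recuperated or control rats alone, without the 2 farthest arrays and without recuperated array 4. The cause of these changes was not tested.

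With each array left out in turn, 342 to 476 probe sets were higher and 352 to 622 lower (622 without recuperated array 1), 0 to 1 passed adjustment (1 without recuperated array 2), 0 to 1 members were lower, 0 to 1 pathway genes were higher and 0 to 1 lower, and 0 to 1 marker genes were higher and 0 to 2 lower. Log2 fold changes that turned sign ranged from -0.19 to 0.13 for Gad1 (second probe set -0.26 to 0.25), -0.07 to 0.10 for Gad2, -0.01 to 0.16 for Slc6a11, -0.02 to 0.50 for a dim Abat probe set, -0.18 to 0.33 for Slc17a6, -0.03 to 0.07 for Aldh5a1 and -0.27 to 0.13 for Dlx5. Both Gad1 probe sets, Slc17a6 and Dlx5 turned without recuperated array 4 only. Of 197 member values under all alternatives, 182 kept direction and side of the threshold, 13 reversed and 2 passed it (Slc32a1).

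The animal numbers did not pair the arrays: deviations of same-numbered animals correlated above 0.1 in 0 of 6 pairs. With the block 0 members were higher and 0 lower.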
